A study of Mus musculus with 64 samples.

Results

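The genes described here are 10 targets of the transcription factor p53: Mdm2, Ccng1, Plk2, Phlda3, Trp53inp1, Aen, Zmat3, Sesn2, Gdf15 and Eda2r. They were taken by symbol from a table of 36332 gene IDs in 64 libraries of polyA RNA, and all 10 were found. Reads on 9 of them were present in all 64 libraries, and reads on Gdf15 in 63. They fall into 12 groups, from mice that had lost Myc (KO) or were wild type (WT), aged 5 or 20 months, with omental fat, liver or skeletal muscle as the tissue.

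Per the labels, KO mice came from a cross of 2 strains. The first, with the Gt(ROSA)26Sortm1(cre/ERT2)Tyj allele on a B6.129 background, makes a Cre that tamoxifen switches on, from a locus that is active in most cell types. The second, B6.129-B6.129S6-Myctm2Fwa/Mmjax, has a Myc gene that Cre deletes. WT mice were C57/B6. Mice of both genotypes are labelled as given 5 daily injections of tamoxifen (75 mg/kg) in corn oil after weaning, at a weight of at least 15 g. Strain, Cre and loss of Myc therefore cannot be told apart in a comparison of KO with WT. Each group had 5 libraries at 20 months and 6 at 5 months, except for 4 in KO muscle at 5 months. Library codes start with W for WT or K for KO, and their F, L or S stands for fat, liver or muscle. Codes with 18 belong to mice whose labelled age is 20 months.

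Each library held between 15.4 and 28.5 M reads. Myc fell in KO libraries at 5 months in adipose tissue (log2 difference -1.52, limma adjusted p 0.017) and liver (-2.38, adjusted p 0.00093), with all 6 KO libraries below every WT library in each. In muscle at 5 months the difference was -1.13 (adjusted p 1), and 1 of 4 KO libraries lay below every WT library. At 20 months limma called Myc in no tissue. Old KO livers, at 1.12 to 2.92 CPM, all lay below old WT livers, at 5.36 to 7.61 CPM (-1.16, adjusted p 0.547). In old muscle the genotypes overlapped, with means of 5.98 CPM in KO and 7.91 CPM in WT (-0.49, adjusted p 0.663), and in old adipose tissue 3 of 5 KO libraries lay below every WT one (-0.63, adjusted p 1). Of the young libraries 32 share the number in their code with libraries of other tissues, 12 such numbers in all, so libraries of different tissues may share a mouse. At 5 months 12 libraries, 2 in each group of each tissue, had Xist and no Y-chromosome transcripts, and no library at 20 months did, so sex moves with age. These 12 libraries carry only 4 numbers, each repeated in all 3 tissues, so what they show in one tissue is not independent of the others. In adipose tissue 4 young libraries held epididymis markers at a sum over 10 CPM (K5F4284, K5F5218, K5F5248 and W5F5299). The old WT muscle library W18S42 held hepatocyte markers at a sum of 3116 CPM, against a group median of 4.53. Skeletal muscle, hepatocyte and adipocyte markers were each highest by far in the tissue they belong to. In bulk tissue, fewer cells of a type and less RNA per cell cannot be told apart.

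As background, p53 is a transcription factor that is held at a low level by Mdm2, a ubiquitin ligase that marks it for destruction and that p53 itself induces. DNA damage and other stresses release p53 from this loop, and it then binds response elements in or near its target genes. Targets act on the loop itself, on survival and death signalling, on nutrient sensing and on signals between cells. Eda2r, a receptor of the tumour necrosis factor receptor superfamily that binds the A2 form of ectodysplasin, is among the targets known for a rise with age in several tissues.

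The search for p53 response elements was limited to the window from 250 bases before to 50 after a transcript start, in 32851 such windows of RefSeq (GRCm38.p6). The best match to the 20-base p53 response element, without a spacer, was scored in each window. The element is its own reverse complement, so a match reads on both strands. Windows were found for 8 of the 10 members, and Trp53inp1 and Zmat3 had no entry. These sequences are shown because Ccng1 and Aen, of all members with a window, matched best, and because Cdkn1a is the classical p53 target to set beside them. Each is written 5′ to 3′ on the gene's strand, with the 20 matched bases in capitals:
Ccng1: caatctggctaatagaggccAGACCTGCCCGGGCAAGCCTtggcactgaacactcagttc
Cdkn1a: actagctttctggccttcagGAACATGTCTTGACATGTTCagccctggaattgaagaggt
Aen: aagccGGGCTTGTCCGGGCAAGGAGcttcc

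The Ccng1 stretch lies at chr11:40755442-40755501 on the minus strand, and its first capital is 195 bases before a transcript start. It matches 19 of 20 positions, as does the Cdkn1a stretch at chr17:29090908-29090967 on the plus strand, 51 bases before a start. The window of another Cdkn1a start had a best match of 15 positions. Only 0.0883% of all windows hold a match of 19 or more. The Aen stretch at chr7:78895932-78895961 on the plus strand matches 17 positions, which 6.29% of windows reach or pass. Its match begins 10 bases after one transcript start and 121 bases before another. Best matches in the windows of Mdm2, Phlda3, Sesn2, Gdf15 and Plk2 had 15 positions, which 76.6% of windows reach. Eda2r had 14, which 98.5% reach. A match is a description of letters, and no match says only that these letters are not in this window.

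Across the members, the differences that passed the test were between ages, and each of them was a rise at 20 months. Eda2r rose in KO mice in all 3 tissues and in WT mice in adipose tissue and muscle. Ccng1 rose in adipose tissue of both genotypes and in WT muscle. Mdm2 and Plk2 rose in KO adipose tissue, Phlda3 in WT adipose tissue and WT muscle, Aen in WT muscle and Gdf15 in WT liver. No member was called for the interaction of genotype and age, so a call in a single genotype does not show a difference between genotypes. Trp53inp1, Sesn2 and Zmat3 passed the test nowhere, although edgeR and DESeq2 called Trp53inp1 lower in old WT muscle. DESeq2 alone also called rises of Eda2r in WT liver, Mdm2 and Plk2 in WT adipose tissue and Ccng1 in KO liver. It alone called Trp53inp1 lower in old WT adipose tissue. A member is called here at an adjusted p under 0.05 in limma, on log2(CPM + 1), with adjustment over all genes tested in the tissue. Differences below are log2 differences on that scale with their SE, which understate the change of genes with few reads.

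In adipose tissue 4 of 10 members were called higher with age in KO mice, where 10.5% of all 14286 genes tested were called higher and 14.2% were called in either direction. In WT adipose tissue 3 of 10 were called higher, beside 7.41% of all genes higher and 10.8% in either direction. In muscle Gdf15 did not pass the filter on low values, which left 9 members. Of these, 4 were called higher in WT muscle, beside 10.9% of genes higher and 18.6% in either direction, and 1 in KO muscle, beside 3.6% higher and 5.57% in either direction. In liver 1 of 10 was called higher in each genotype, beside 2.83% of genes higher and 7.19% in either direction in WT, and 1.68% and 2.99% in KO. No member was called lower with age by limma. Over all genes the split into higher and lower calls depends on the processing, by scaling in liver and muscle. It was 366 higher and 563 lower in WT liver and 217 and 169 in KO liver, against 1121 and 204 and 563 and 36 when libraries were scaled to their total reads, which moved the median of all genes there from -0.01 to 0.17 and from -0.02 to 0.15. In adipose tissue it was 1497 and 536 in KO and 1059 and 480 in WT, against 997 and 1265 and 886 and 820 with edgeR. There the test and the scaling change together. In muscle it was 1446 and 1017 in WT and 477 and 260 in KO, against 1783 and 795 and 1056 and 161 with total-read scaling. The median log2 difference over members was 0.53 in WT and 0.52 in KO adipose tissue, 0.15 and 0.44 in liver, and 0.16 and 0.10 in muscle. Over all genes tested it lay between -0.02 and 0.06. Members and lists were chosen with earlier results of these data known, so these counts and medians only describe them. The shares of all genes given here also serve for the limma counts of list and marker genes below.

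**Figure D1:**
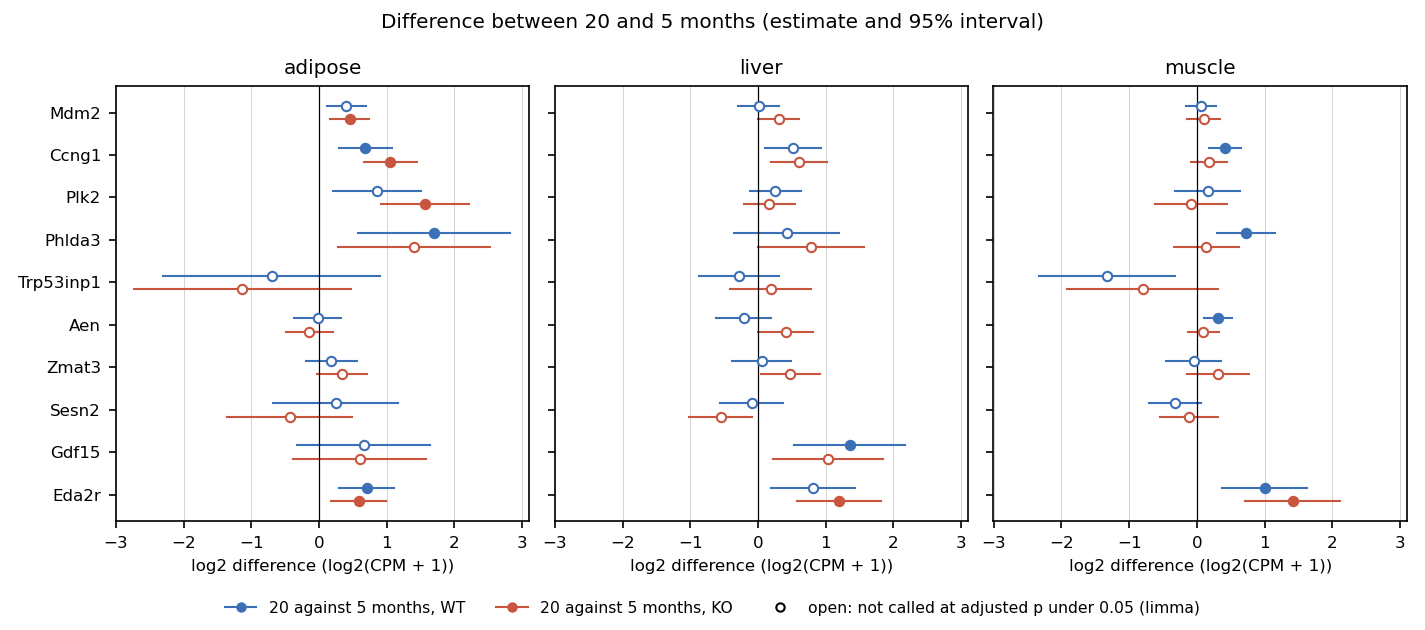
Log2 differences between 20 and 5 months (horizontal axis, log2(CPM + 1) scale) of the 10 members in adipose tissue, liver and muscle, in WT (blue) and KO mice (red). Points are limma estimates, lines 95% intervals, and filled points are called at adjusted p under 0.05. Filled points all lie to the right of 0, and Eda2r has 5 of its 6 points filled.

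Eda2r (gene ID 245527, chromosome X:97333837-97377234 in GRCm38.p6) was highest in muscle in every group. Muscle means were 54.8 ± 24.2 CPM (SD, n = 6) in young WT, 103 ± 24.4 (n = 5) in old WT, 29 ± 9 (n = 4) in young KO and 80.6 ± 26.2 CPM (n = 5) in old KO libraries. Adipose means were 2.24 ± 0.749 CPM in young WT and 2.24 ± 0.619 in young KO (n = 6 each), and 4.19 ± 0.605 and 3.93 ± 1.36 CPM in old WT and KO (n = 5 each). Liver means were 0.555 ± 0.528 and 0.634 ± 0.448 CPM in young WT and KO (n = 6 each), and 1.88 ± 1.49 and 2.83 ± 1.29 CPM in old WT and KO (n = 5 each). All 20 muscle libraries, at 22 CPM or more, lay above all others, at 5.54 CPM or less. The old groups of adipose tissue and liver overlap in this order.

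**Figure D2:**
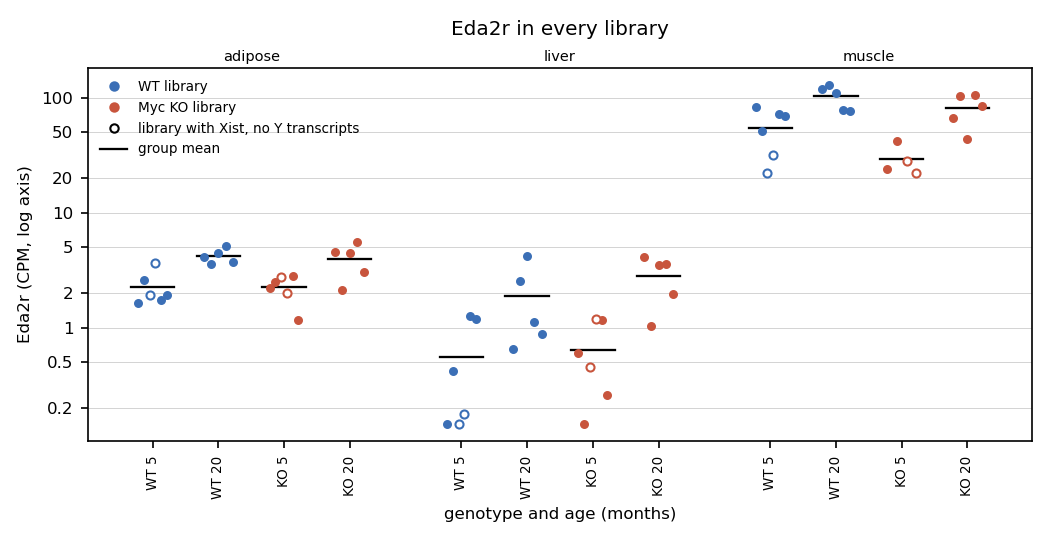
Eda2r in every library (vertical axis, CPM, log axis) by tissue, genotype and age in months. Points are libraries, open points the 12 libraries with Xist, and black lines group means. Muscle libraries sit between 22 and 129 CPM, and old groups sit above young ones with overlap in all but KO muscle.

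In KO muscle the young libraries had 22.1, 23.9, 28.1 and 42 CPM of Eda2r. Old KO muscle libraries had 43.2, 66.9, 84.2, 103 and 106 CPM, so that all 5 lay above every young one. The difference of 1.42 ± 0.34 passed the test (adjusted p 0.0212). In WT muscle the young libraries ran from 22 CPM over a median of 60.0 to 83.1, and the old ones had 76.2, 77.4, 111, 119 and 129 CPM. Here 3 of 5 old libraries lay above every young one, and the difference was 1.0 ± 0.30 (adjusted p 0.0291). The young muscle libraries with Xist had 22 and 31.4 CPM in WT, which were the 2 lowest of that group, and 28.1 and 22.1 CPM in KO. Without the Xist libraries the differences were 0.55 in WT (adjusted p 0.181) and 1.25 in KO (adjusted p 0.0542), and neither passed. Over 7 other settings the adjusted p ran from 0.0199 to 0.181 in WT and from 0.000500 to 0.0953 in KO. The WT call was lost when W18S42, W18S45, W5S5007, W5S5041 or W5S5042 was left out, and the KO call without K18S61, K18S63, K18S64, K5S4284, K5S5116 or K5S5118, with adjusted p up to 0.0833.

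In WT adipose tissue Eda2r ran from 1.64 CPM over a median of 1.93 to 3.62 in the young libraries, and was 3.6, 3.75, 4.07, 4.44 and 5.11 CPM in the old ones. The groups overlapped by 1 library, the old W18F22 lying just under the highest young one. The rise was 0.70 ± 0.20 (adjusted p 0.0272), and it stood at 0.81 without the Xist libraries (adjusted p 0.0364, range over 8 settings 0.0127 to 0.0617). Leaving out 1 of W18F21, W18F23, W18F24, W18F25, W5F5041 or W5F5277 ended the call, with adjusted p up to 0.0695. In KO adipose tissue young libraries ran from 1.16 CPM over a median of 2.35 to 2.83, and old ones had 2.11, 3.03, 4.44, 4.54 and 5.54 CPM. Here 4 of 5 old libraries lay above every young one. This rise of 0.58 ± 0.20 was the closest to the threshold (adjusted p 0.0494). It was called in 4 of 22 fits without 1 library (adjusted p 0.0186 to 0.144) and in 3 of 8 other settings (0.0361 to 0.132, the highest without the epididymis libraries).

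In KO liver Eda2r was between 0.144 and 1.19 CPM in the young libraries, with a median of 0.523. The old KO livers had 1.02, 1.97, 3.48, 3.58 and 4.11 CPM, and 4 of 5 lay above every young one. All 5 were above 1 CPM, which was enough for Eda2r to pass the filter on low values in liver. The rise was 1.19 ± 0.30 (adjusted p 0.0334), and 14 of 22 fits without 1 library kept the call, with adjusted p from 0.0212 to 0.101. The call was lost without K18L06, K18L08, K18L09, K18L10, K5L4284, K5L4285, K5L5116 or K5L5248. It was also lost at a pseudocount of 0.1 (adjusted p 0.0528) and without the filter on low values (0.0557), over a range of 0.0112 to 0.0557. In WT liver the old values were 0.650, 0.887, 1.11, 2.55 and 4.19 CPM, against a young median of 0.296 and a young maximum of 1.26. That difference of 0.81 ± 0.30 did not pass in limma (adjusted p 0.0965), and 2 of 5 old libraries lay above every young one. DESeq2 called it, at 1.77 (adjusted p 0.0387), and edgeR did not (1.78, adjusted p 0.0755). Young WT livers held only 0.144 to 1.26 CPM, a range that the log2(CPM + 1) scale compresses, and at a pseudocount of 0.1 the difference was 1.68 (adjusted p 0.076). The difference of WT ageing between tissues was not called for Eda2r in any pair of tissues. Its estimates were -0.11 for adipose minus liver, -0.30 for adipose minus muscle and -0.19 for liver minus muscle, with 95% intervals of -0.90 to 0.68, -1.09 to 0.50 and -0.98 to 0.60. These estimates depend on the scale. At a pseudocount of 0.1 and with edgeR and DESeq2, adipose minus liver was -0.76, -0.91 and -0.88, and liver minus muscle turned to 0.66, 0.92 and 0.91.

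Genes of the Eda2r pathway, fixed as a list of 16 around the ligand, the related receptor Edar and the TRAF and NF-kappaB proteins, were then examined. In adipose tissue 2 of 15 tested were called higher with age in each genotype and none lower. Of all genes there, 7.41% in WT and 10.5% in KO were called higher. Traf1, an adaptor of tumour necrosis factor receptors, rose in WT (0.83, adjusted p 0.0225) and KO (0.67, adjusted p 0.0475). Eda, the ligand gene, rose in KO adipose tissue from 4.02 to 7.28 CPM on average (0.82, adjusted p 0.0227). Edaradd, the adaptor of Edar, rose in WT adipose tissue from 0.497 to 1.48 CPM (0.71, adjusted p 0.0468). In WT muscle 3 of 15 rose and 2 fell, beside 10.9% of all genes higher and 18.6% in either direction. The kinase subunit genes Chuk and Ikbkg and the adaptor gene Traf2 rose by 0.38, 0.40 and 0.52, and Nfkbia, the inhibitor that NF-kappaB induces, fell by 1.44 together with Rela, an NF-kappaB subunit gene (-0.49). In WT liver 1 of 13 was called, Traf3, higher by 0.56, beside 7.19% of all genes called in either direction. In KO muscle and KO liver limma and edgeR called 0 of 15 and 0 of 13, DESeq2 2 and 1, and at an unadjusted p under 0.05 they numbered 5 and 2. Of all genes limma called 5.57% in KO muscle and 2.99% in KO liver. In KO adipose tissue edgeR called 0 of the 15.

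Mdm2 (gene ID 17246, chromosome 10:117688875-117710758) closes the p53 feedback loop. In muscle it averaged 63.8 to 74.8 CPM over the 4 groups, and in adipose tissue and liver 28.3 to 42 CPM. This order of tissues depends on the scaling, since old KO adipose tissue stood first of the 12 groups when all libraries were scaled to their total reads. In KO adipose tissue the old libraries had 34.5, 36.5, 42.6, 45.8 and 50.6 CPM, against young values from 21.6 over a median of 31.2 to 40.5 CPM. That made 3 of 5 old libraries higher than every young one, a rise of 0.45 ± 0.14 (adjusted p 0.0355). In WT adipose tissue the old values of 34.5, 35.7, 37.7, 38.0 and 42.4 CPM all lay above the young ones, which ran from 24.4 over a median of 28.4 to 32.3 CPM. The groups did not overlap, but the difference of 0.40 ± 0.14 did not pass in limma (adjusted p 0.0605), while DESeq2 called it (0.40, adjusted p 0.0312). The KO call was lost in 5 of 8 other settings (adjusted p 0.0364 to 0.0981), among them total-read scaling (0.0941), edgeR (0.067) and the fit without Xist libraries (0.0981). It was also lost without K18F26, K18F29, K18F30, K5F4284, K5F5118 or K5F5248, with adjusted p up to 0.114. In liver and muscle the differences between ages were 0.01 to 0.31, and none passed.

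Ccng1 (gene ID 12450, chromosome 11:40748552-40755309) encodes cyclin G1, which brings a phosphatase to Mdm2. Its level was far higher in muscle, with group means of 698 to 1093 CPM, than in adipose tissue (63.7 to 134 CPM) or liver (37.5 to 58.0 CPM), and no muscle library overlapped with any of the other tissues. In KO adipose tissue the young libraries ran from 40.3 CPM over a median of 66.1 to 74.3, and the old ones had 89.2, 115, 132, 159 and 175 CPM. All 5 old libraries lay above every young one. The rise of 1.05 ± 0.19 (adjusted p 0.0024) passed in all 22 fits without 1 library and in all 8 other settings. In WT adipose tissue young libraries ran from 53.4 over a median of 80.6 to 103 CPM, and old ones had 99.7, 116, 128, 142 and 151 CPM. This rise was 0.68 ± 0.19 (adjusted p 0.027), with 4 of 5 old libraries above every young one. It was lost without the Xist libraries (0.70, adjusted p 0.0743, range over 8 settings 0.00491 to 0.0743) and without W18F21, W18F22, W18F23, W18F24 or W5F5041 (adjusted p 0.0503 to 0.0778).

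In WT muscle young libraries had 747 to 903 CPM of Ccng1 with a median of 802, and old ones 888, 988, 1022, 1150 and 1418 CPM. Here 4 of 5 old libraries were higher than every young one, and the highest was W18S42, the library with hepatocyte markers. The rise was 0.42 ± 0.11 (adjusted p 0.019). Without W18S42 it was 0.32 (adjusted p 0.0618), without W18S66 the adjusted p was 0.0529, and without the Xist libraries the difference was 0.38 (adjusted p 0.101, range over 7 settings 0.00458 to 0.101). Old KO muscle had 631, 731, 817, 858 and 943 CPM against 646 to 749 CPM in young KO libraries, and this difference of 0.18 ± 0.13 did not pass (adjusted p 0.386). In liver Ccng1 was 0.51 ± 0.20 higher with age in WT and 0.60 ± 0.20 in KO, and neither passed in limma (adjusted p 0.112 and 0.0989). DESeq2 called the KO difference (0.65, adjusted p 0.0411). Of the old livers 3 of 5 in each genotype lay above every young one.

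Plk2 (gene ID 20620, chromosome 13:110395044-110400844), a polo-like kinase of centriole duplication and of the stress response, was also highest in old KO adipose tissue. The young KO libraries ran from 7.40 CPM over a median of 14 to 20.1, and the old ones had 22, 35.8, 45.1, 56.9 and 64.1 CPM. All 5 lay above every young one, and the rise of 1.57 ± 0.31 (adjusted p 0.00394) passed in all 22 fits without 1 library and in all 8 other settings. Old WT adipose libraries had 16.2, 21.2, 22.2, 29.6 and 47.5 CPM, and young ones 6.92 to 23.9 CPM with a median of 13. This difference of 0.86 ± 0.31 did not pass in limma (adjusted p 0.076), while DESeq2 called it (0.89, adjusted p 0.0423). In liver and muscle the differences between ages were between -0.09 and 0.25, and none passed. Plk2 is also an immediate early gene, of a kind that answers to handling of tissue. Of 16 such genes tested in adipose tissue limma called 0 with age in each genotype, with 3 in WT and 6 in KO at an unadjusted p under 0.05. For WT and KO, edgeR called 1 and 0 of them and DESeq2 3 and 4.

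Cell type markers moved with age in adipose tissue, beside the rises of Eda2r, Ccng1, Mdm2, Plk2 and Phlda3. Of 8 B and plasma cell markers tested 6 rose in WT and 4 in KO, and of 8 T cell markers 7 rose in WT. In KO limma, edgeR and DESeq2 each called 0 of the 8 T cell markers, and 1 had an unadjusted p under 0.05. Summed B and plasma cell markers were 27.3 to 115 CPM in young WT, 88.7 to 402 in old WT, 36.0 to 114 in young KO and 51.7 to 173 CPM in old KO libraries, with Ighm and Igkc listed at 0 in every library. Summed T cell markers were 6.92 to 18.3 CPM in young WT, 20.8 to 83.9 in old WT, 17.6 to 33.6 in young KO and 24.7 to 37.9 CPM in old KO libraries, with Trbc1 and Trbc2 listed at 0 throughout. Summed hepatocyte markers were 486 to 4928 CPM in young WT and 157 to 551 CPM in old WT adipose tissue, and 1246 to 3854 and 112 to 1494 CPM in young and old KO adipose tissue. Summed adipocyte markers were 22805 to 39328 CPM in young WT and 14294 to 22995 CPM in old WT, and 12420 to 39675 and 13551 to 24255 CPM in young and old KO. Of 9 macrophage markers 1 rose in KO, and in WT limma and edgeR called 0 and DESeq2 1, with 1 at an unadjusted p under 0.05. Of 10 adipocyte markers 2 fell in WT, and 2 fell and 1 rose in KO. The part of these markers in the rises of the members was not tested.

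Phlda3 (gene ID 27280, chromosome 1:135766085-135769134) encodes a protein that competes with the kinase Akt for membrane lipids. It was highest in muscle, with group means of 426 to 658 CPM, then in adipose tissue (49.1 to 161 CPM), and lowest in liver (2.27 to 4.96 CPM). In WT adipose tissue the old libraries were close together at 129, 154, 159, 167 and 196 CPM, while the young ones ran from 14.4 CPM over a median of 62 to 209. No old library lay above every young one, because the young W5F5277 had 209 CPM. The rise was 1.70 ± 0.54 (adjusted p 0.0468) and was called in 6 of 22 fits without 1 library (adjusted p 0.0112 to 0.120). The lowest young values, 14.4 and 15.7 CPM, belonged to the libraries with Xist. Without them the difference was 0.89 (adjusted p 0.269), and 3 of 8 other settings kept the call (0.0422 to 0.269), with edgeR (0.174) and DESeq2 (0.124) among those that did not. In KO adipose tissue old libraries had 82.5, 89.6, 127, 134 and 174 CPM against 14.5 to 85.3 CPM in young ones, a difference of 1.40 ± 0.54 that did not pass (adjusted p 0.0825) but did without the Xist libraries (1.56, adjusted p 0.0283).

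In WT muscle Phlda3 was 553, 654, 670, 697 and 717 CPM in old libraries, and 236 to 687 CPM with a median of 339 in young ones. The young libraries fell apart, with W5S5277 and W5S5299 at 687 and 628 CPM and the other 4 at 348 CPM or less. The rise was 0.73 ± 0.21 (adjusted p 0.022), with 2 of 5 old libraries above every young one. It was lost without W18S42 (adjusted p 0.0558) or W5S5042 (0.0507), with the sex covariate (0.0572) and without the Xist libraries (0.47, adjusted p 0.14, range over 7 settings 0.0195 to 0.14). W5S5299 also held epididymis markers at a sum of 131 CPM. In KO muscle young libraries had 387 to 491 CPM and old ones 396, 456, 507, 548 and 581 CPM, and the difference of 0.14 ± 0.23 did not pass (adjusted p 0.726).

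Aen (gene ID 68048, chromosome 7:78895927-78911209), a nuclease that p53 induces in cell death, averaged 48.3 to 69.3 CPM in muscle groups and 18.6 to 29.6 CPM in adipose tissue and liver. In WT muscle old libraries had 60.3, 63.6, 67.6, 70.9 and 83.9 CPM, and young ones 49.3 to 63.3 CPM with a median of 53.9. With 4 of 5 old libraries above every young one, the rise was small, at 0.32 ± 0.10, and was called (adjusted p 0.0331). It was lost without the Xist libraries (0.35, adjusted p 0.0708, range over 7 settings 0.0143 to 0.0708) and without W18S41, W18S42, W18S66, W5S5004, W5S5007 or W5S5299 (adjusted p up to 0.0743). In KO muscle the difference was 0.09 ± 0.11 (adjusted p 0.628), in adipose tissue -0.02 and -0.15 in WT and KO, and in liver -0.21 and 0.41, and none passed.

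Beside the muscle rises, 6 of 9 macrophage markers, 4 of 8 fibroblast markers and 3 of 8 endothelial markers fell with age in WT muscle, and 2 of 8 fibroblast markers fell in KO muscle. Of 10 adipocyte markers 2 fell and 1 rose in WT muscle. Of 16 immediate early genes 5 fell in WT muscle. In KO muscle limma and edgeR called 0 of them and DESeq2 3, and 7 had an unadjusted p under 0.05. Whether these changes have a part in the rises of Eda2r, Ccng1, Phlda3 and Aen was not tested.

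Trp53inp1 (gene ID 60599, chromosome 4:11156441-11174379), a stress protein of p53 signalling and autophagy, varied widely within groups. In young WT adipose tissue it was 647 and 467 CPM in W5F5041 and W5F5042, the libraries with Xist, and 21.8 to 69.7 CPM in the other 4. These same libraries had the lowest Phlda3 of their group. In young KO adipose tissue it was 33.2, 42.6, 72.2, 159, 235 and 362 CPM, with Xist in the libraries at 72.2 and 235 CPM and epididymis markers in those at 33.2, 42.6 and 362 CPM. All 10 old adipose libraries lay between 27.8 and 77.8 CPM. The differences with age of -0.70 ± 0.77 in WT and -1.13 ± 0.77 in KO did not pass (adjusted p 0.56 and 0.316), and without the Xist libraries the WT value was 0.64 (adjusted p 0.478). DESeq2 called the WT difference, at -2.03 (adjusted p 0.0382), and edgeR did not (-2.03, adjusted p 0.0953). In WT muscle young libraries had 18.6 to 185 CPM and old ones 18.9 to 29.6, a difference of -1.32 ± 0.48 that did not pass (adjusted p 0.0593). On the recovered reads it was called by edgeR (-1.85, adjusted p 0.0192) and DESeq2 (-1.85, adjusted p 0.00384), and without the Xist libraries it was -1.25 in limma (adjusted p 0.179). Liver groups averaged 81.7 to 102 CPM, with differences of -0.28 in WT and 0.19 in KO.

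Zmat3 (gene ID 22401, chromosome 3:32334792-32365665), a zinc-finger protein that binds RNA, had group means of 9.81 to 22 CPM over all 12 groups. When libraries were scaled to their total reads the means spread further, from 6.9 in young WT liver to 33.8 in old KO adipose tissue, so the differences between tissues depend on the scaling. Adipose means were 17.0 to 22 CPM, muscle means 12.2 to 15.2 and liver means 9.81 to 13.9 CPM. Its differences with age were between -0.05 and 0.48, the highest in KO liver (adjusted p 0.216), and none passed.

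Sesn2 (gene ID 230784, chromosome 4:132492804-132510456), a sensor of leucine that restrains the growth kinase complex mTORC1, was highest in adipose tissue (36.4 to 55.6 CPM), then in liver (13.4 to 23.9 CPM) and lowest in muscle (4.54 to 6.30 CPM). No difference with age passed, and 5 of the 6 were below 0. With total-read scaling WT liver turned from -0.10 to 0.10 and KO muscle from -0.12 to 0.00. The largest was in KO liver at -0.55 ± 0.22 (adjusted p 0.176). In young KO liver it was 10.4, 21, 21.4, 23.6, 25.2 and 42 CPM, and in young WT liver 9.99 to 18.6 CPM with a median of 14.5. Of the KO libraries 5 of 6 lay above every WT one, but the difference of 0.60 ± 0.21 did not pass (adjusted p 0.503).

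Gdf15 (gene ID 23886, chromosome 8:70629393-70632470) encodes a secreted stress hormone that acts on appetite. It was all but absent in muscle, where the 20 libraries had 0 to 0.842 CPM, and it did not pass the filter there. In WT liver young libraries ran from 4.08 CPM over a median of 7.53 to 12.2, and old ones had 10.1, 17.0, 22.3, 23.7 and 31.3 CPM. Here 4 of 5 old libraries lay above every young one, and the rise of 1.36 ± 0.39 passed (adjusted p 0.0393). It was lost without the Xist libraries (1.31, adjusted p 0.0935), without the filter (0.0732) and at a pseudocount of 0.1 (0.0515), over a range of 0.00311 to 0.0935. It was also lost without W18L02, W18L03, W18L04, W18L05, W5L5004, W5L5005, W5L5041 or W5L5042, with adjusted p up to 0.108. In KO liver young libraries had 1.56 to 22.1 CPM and old ones 12.7, 18.9, 20.9, 25.3 and 27.4 CPM, and the difference of 1.04 ± 0.39 did not pass (adjusted p 0.15). In adipose tissue the differences with age were 0.66 in WT and 0.60 in KO, and neither passed (adjusted p 0.352 and 0.389).

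In each genotype the old liver highest in Eda2r was also highest of its group in several other members, 7 of 9 in WT and 5 of 9 in KO. The old WT library W18L03 had 4.19 CPM of Eda2r, 81.1 of Ccng1, 12.3 of Phlda3 and 19.8 of Zmat3, the highest of its group in each. The old KO library K18L06 had 4.11 CPM of Eda2r, 89.7 of Ccng1, 7.91 of Phlda3 and 18.4 of Zmat3, again the highest of its group in each. The next old KO livers, K18L09 and K18L08 with 3.58 and 3.48 CPM of Eda2r, were highest in 1 and 3 of the other 9 members. These libraries were picked after their values were seen, and the share of all genes that were highest in each is not given. Of the old WT livers W18L03 also had the lowest sum of deposited values (1.18 M) and the most genes detected (17221). K18L06 had neither in its group. In liver 5 of 10 macrophage markers fell with age in WT and 4 of 10 in KO. In WT liver, where Gdf15 rose, 3 of 10 hepatocyte markers fell as well, with sums of 129137 to 252113 CPM in young and 126936 to 147598 CPM in old libraries. Of 9 mesothelium markers 2 rose and 1 fell there, 1 of 5 B and plasma cell markers rose, and 1 gene each fell of 5 adipocyte, 3 T cell, 2 pancreas acinar and 7 fibroblast markers. In KO liver limma called no markers other than those of macrophages, and the part of all these markers in the members' values was not tested.

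**Figure D3:**
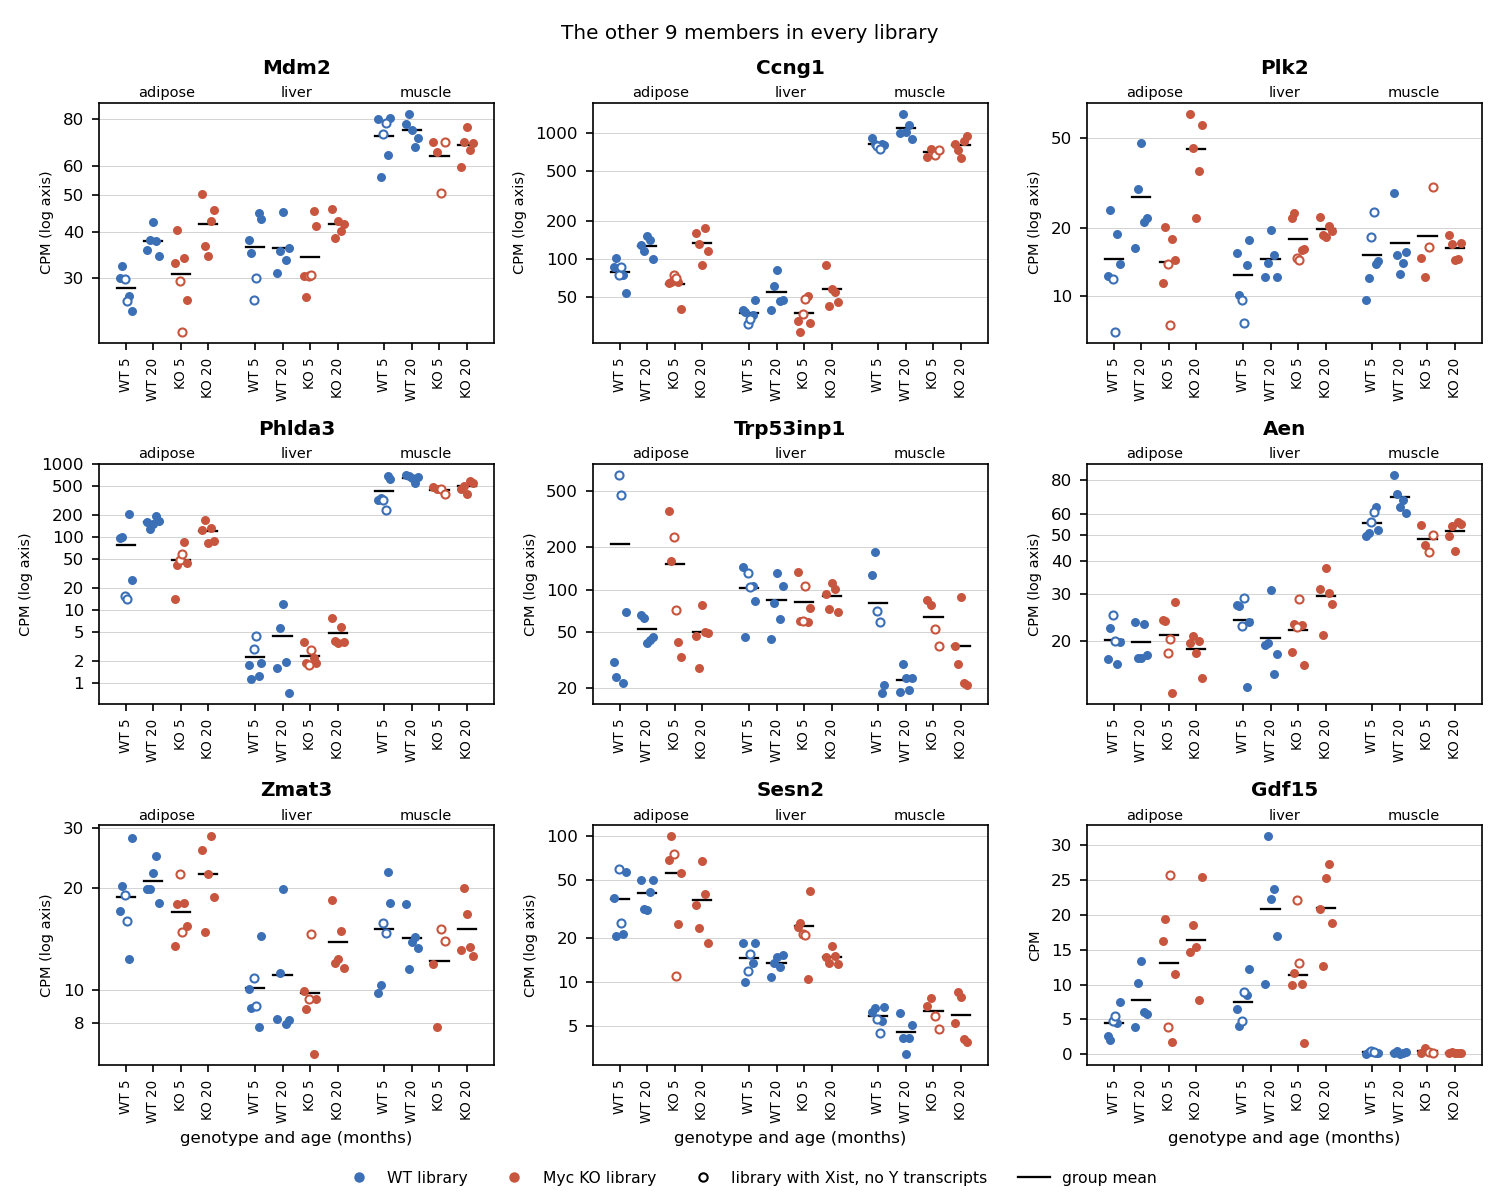
The 9 members other than Eda2r in every library (vertical axes, CPM, log axes except for Gdf15) by tissue, genotype and age in months. Points are libraries, open points the libraries with Xist, and black lines group means. Ccng1 and Phlda3 stand highest in muscle and Gdf15 near 0 there, and the 2 highest Trp53inp1 values, 647 and 467 CPM, are open points of young WT adipose tissue.

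The comparison of KO with WT asks whether loss of Myc goes with a change of p53 targets at the same age. No member was called by limma or edgeR in any tissue at either age, and DESeq2 called 1, Gdf15 in adipose tissue at 5 months (1.6, adjusted p 0.0461). Over all genes limma called 0.105% at 5 months and 0% at 20 months in adipose tissue, 0.0696% and 0.0232% in liver, and 0% and 0.0302% in muscle. At an unadjusted p under 0.05 the members numbered 1 at each age in adipose tissue, 2 at each age in liver, and 1 at 5 and 2 at 20 months in muscle. The shares of all genes are of limma calls at adjusted p. No such share is given for counts at an unadjusted p, here or elsewhere, or for the DESeq2 call. No member was called for the interaction of genotype and age in any tissue, beside 0% of all genes in each, and 1 member, Aen in liver, had an unadjusted p under 0.05. By edgeR and DESeq2 the count was 0 as well. Nor was any of the 9 members tested in all tissues called for a difference of WT ageing between tissues by limma, edgeR or DESeq2. All genes were called at 4.01% for adipose tissue against liver, 16.4% for adipose tissue against muscle and 3.1% for liver against muscle, and in that order 2, 0 and 1 members had an unadjusted p under 0.05. That model holds all 3 tissues and treats libraries with the same number as independent. With the number as a block, an alternative chosen after seeing the data, 0 members were called as well, and the correlation within a number was estimated at 0.0562.

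The KO difference with the lowest p among members was that of Aen in muscle at 20 months. Old KO libraries had 43.7, 49.6, 54.0, 54.6 and 55.7 CPM, and all 5 lay below every old WT library, the lowest of which had 60.3 CPM. The difference was -0.42 ± 0.10 with an adjusted p of 0.276. Ccng1 in the same libraries differed by -0.45 ± 0.12 (adjusted p 0.295), with 4 of 5 KO libraries below every WT one, and Phlda3 by -0.41 ± 0.22 (adjusted p 0.397), also with 4 of 5. At 5 months Eda2r in muscle differed by -0.80 ± 0.32 (adjusted p 1), with a 95% interval of -1.48 to -0.12. None of these passed the test, and their intervals do not show that the genotypes are alike.

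In adipose tissue Gdf15 had the largest KO differences. At 5 months KO libraries had 1.72, 3.92, 11.6, 16.2, 19.4 and 25.8 CPM, and WT libraries 2.04 to 7.44 CPM with a median of 4.63. The KO libraries thus lay at both ends, with 4 of 6 above every WT library and 1 below. The difference of 1.06 ± 0.45 did not pass (adjusted p 0.371). Epididymis markers were found in more KO libraries (K5F4284, K5F5218 and K5F5248) than WT libraries (W5F5299) at this age. Without these libraries the difference was 1.56 in limma (adjusted p 0.204). At 20 months KO libraries had 7.82, 14.7, 15.3, 18.6 and 25.5 CPM and WT libraries 3.88, 5.72, 6.02, 10.2 and 13.4 CPM, a difference of 1.0 ± 0.49 (adjusted p 1). In liver Plk2 was higher in KO by 0.52 ± 0.17 at 5 months (adjusted p 0.465) and 0.43 ± 0.19 at 20 months (adjusted p 0.81), which did not pass. The KO comparisons and the ageing comparisons share libraries, so their values for a member are not independent.

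**Figure D4:**
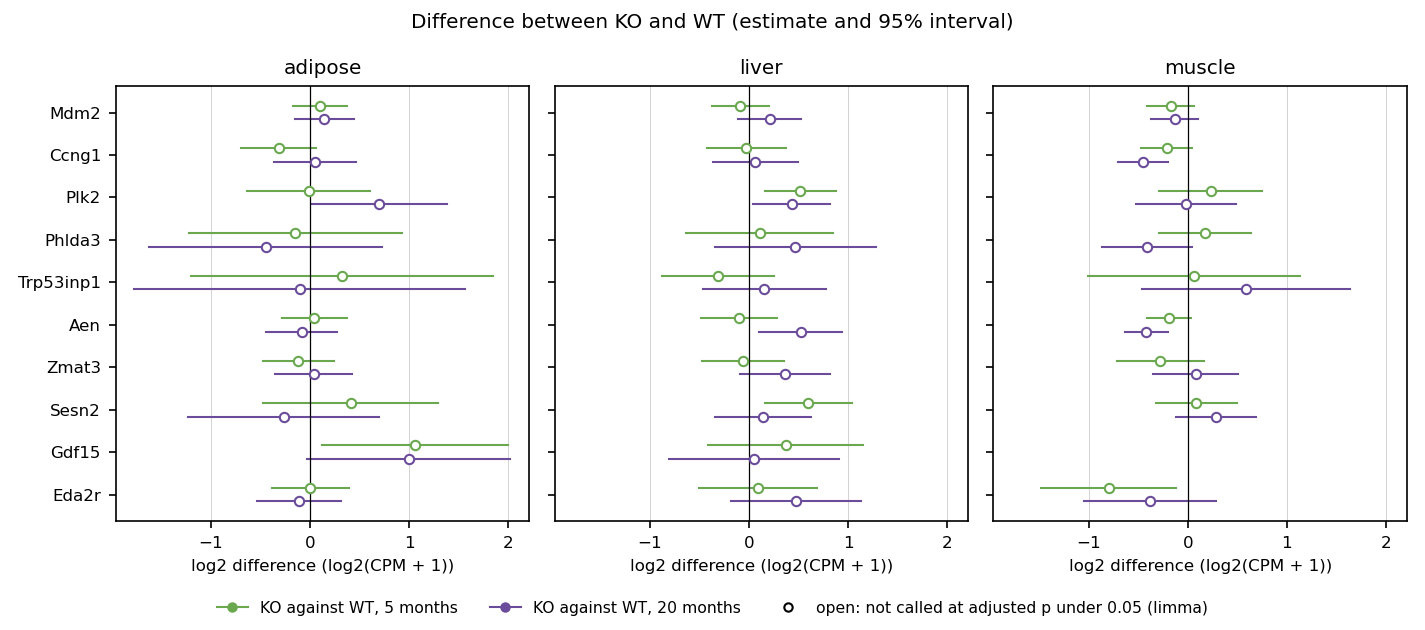
Log2 differences between KO and WT (horizontal axis, log2(CPM + 1) scale) of the members at 5 months (green) and 20 months (purple) in adipose tissue, liver and muscle. Points are limma estimates and lines 95% intervals, and all points are open because no member was called.

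Trp53, the gene of p53 itself, was not called in any comparison. Its group means ran from 23.1 to 29 CPM in adipose tissue, from 20.9 to 26.4 CPM in liver and from 12.9 to 17.2 CPM in muscle, and its differences with age ran from -0.22 to 0.22. Cdkn1a, the cell cycle inhibitor p21, was not called either, and its spread was wide, with 22.9 to 750 CPM among young WT muscle libraries and 45 to 135 CPM among old ones. That difference was -1.71 ± 0.68 (adjusted p 0.0818). Of 22 genes in a list of p53 and its regulators, 3 of 20 tested rose and 1 fell with age in WT adipose tissue, and 1 rose and 2 fell in KO. In WT muscle 3 of 19 rose and 2 fell, in KO muscle 4 rose, and in liver 1 of 18 rose in each genotype. Shares of all genes called in either direction were 10.8% in WT and 14.2% in KO adipose tissue. In muscle they were 18.6% and 5.57%, and in liver 7.19% and 2.99%.

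Among these regulators, Atm, the kinase that signals DNA breaks to p53, rose in adipose tissue (0.75 in WT, adjusted p 0.00725, and 0.71 in KO, adjusted p 0.00928) and in muscle (0.89 in each genotype, adjusted p 0.0078 in WT and 0.0253 in KO). Atr, its partner in replication stress, rose in WT adipose tissue by 0.44 and in WT and KO muscle by 0.62 and 0.80. Mdm4, which holds p53 down together with Mdm2, rose in liver of both genotypes (0.77 in WT, adjusted p 0.000588, and 0.53 in KO, adjusted p 0.02), and was the 1 regulator called there. It also rose in KO muscle (0.39, adjusted p 0.0287), and in each of these comparisons all 5 old libraries lay above every young one. Cdkn2a, which encodes an inhibitor of Mdm2, rose in WT adipose tissue from 0.832 to 2.33 CPM (0.91, adjusted p 0.0344). Trp63, a relative of p53, fell in adipose tissue to 0.227 from 2.80 CPM in WT (-1.58, adjusted p 0.00762) and to 0.540 from 4.33 CPM in KO (-1.49, adjusted p 0.00975), and rose in KO muscle (0.93, adjusted p 0.0214). In adipose tissue 4 young libraries held epididymis markers at a sum over 10 CPM, and old ones held at most 3.04 CPM. No value without those 4 libraries is given for Trp63. Ppm1d, a phosphatase that turns p53 off and is its target, fell in KO adipose tissue by 0.56. In WT muscle Cop1, another ubiquitin ligase of p53, rose by 0.34, while Ppp1r13l and Trp53bp2, which bind p53, fell by 0.61 and 0.47. Values of single list genes, here and in the other lists, are from the main limma fit. Sex moves with age, and no fit with the sex covariate or without the Xist libraries is given for them.

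Of 40 other p53 targets, 39 were tested in adipose tissue and 36 in each of the other 2. In adipose tissue 5 rose and 1 fell in WT and 6 rose and 2 fell in KO. Of all genes there, 10.8% in WT and 14.2% in KO were called in either direction. In WT the largest rises were those of Pltp, a phospholipid transfer protein (1.07), Ephx1, an epoxide hydrolase (0.89), and Polk, a polymerase that copies past damage (0.75), and Ei24 fell by 0.42. In KO Pltp rose by 0.90 and Apaf1, the core of the apoptosome, by 0.88. In KO adipose tissue Gadd45a, a growth arrest gene, rose from 9.61 to 24.6 CPM (1.23, adjusted p 0.00638). Ddit4, an inhibitor of mTORC1, fell there by 1.78 and Ddb2, a sensor of ultraviolet damage, by 0.56. In WT liver Pltp (1.1), Gadd45a (0.93) and Perp (0.56), a membrane protein of cell death, rose and Ddit4 fell (-1.79). In KO liver limma called 0 of 36, edgeR 1 and DESeq2 2, and 8 had an unadjusted p under 0.05. All genes were called by limma in either direction at 7.19% in WT and 2.99% in KO liver.

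In WT muscle the list moved both ways, with 5 higher and 7 lower, beside 10.9% of all genes higher and 18.6% in either direction. Tigar, a regulator of sugar breakdown, rose from 114 to 239 CPM (1.17, adjusted p 0.0111). Rrm2b, a subunit that makes DNA precursors, rose by 0.70 and Polh, a polymerase of the same kind as Polk, by 0.73. Ddit4 was 429 to 962 CPM in 4 young libraries, 29.3 CPM in W5S5277 and 76.8 CPM in W5S5299, the 2 that stood apart in Phlda3, and 9.55 to 24.8 CPM in the old ones. All old libraries lay below every young one, and the fall was -3.90 (adjusted p 0.00723). Sesn1, a relative of Sesn2, fell from 386 to 70.2 CPM on average (-2.11, adjusted p 0.0191), with 1 of 5 old libraries below every young one. Btg2, which slows growth, fell by 2.36. In KO muscle 1 of 36 was called, beside 5.57% of all genes in either direction. It was Bbc3, a trigger of cell death, which fell by 0.94. The median difference over this list was -0.34 in WT muscle and -0.21 in KO muscle, beside 0.03 and -0.02 over all genes. In adipose tissue the list's medians were 0.13 in WT and 0.16 in KO, and in liver -0.13 and 0.04.

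Sesn2 and Gdf15 are also targets of the integrated stress response, the pathway of Atf4 that answers to amino acid shortage and misfolded proteins. Of 18 genes of that list, all were tested in adipose tissue, where Vldlr, a lipoprotein receptor, rose with age in WT (0.96) and KO (0.90), Atf3 in KO (1.78), and Asns, which makes asparagine, fell in WT (-1.17). In WT liver 1 of 14 fell, Ppp1r15a (-0.60), which restarts translation. In KO liver limma, edgeR and DESeq2 each called 0 of 14, and 3 had an unadjusted p under 0.05. In WT muscle Cebpb (-1.55), Ppp1r15a (-1.39) and Chac1 (-1.19), a glutathione-degrading enzyme, fell, and in KO muscle Vldlr rose (0.72).

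Mdm2 was set against the other members within tissues, after the mean of each group had been taken from log2(CPM + 1), with 22 libraries each for adipose tissue and liver and 20 for muscle. Of 27 pairs, 3 had an adjusted p under 0.05 by Pearson's r in a permutation test. They were Plk2 in adipose tissue (r 0.68, adjusted p 0.0143), Ccng1 in liver (r 0.60, adjusted p 0.0216) and Eda2r in liver (r 0.60, adjusted p 0.0216). Spearman's rho was 0.65, 0.58 and 0.58 for these pairs, each with an adjusted p of 0.0606 in a permutation test. Without the 2 libraries with Mdm2 farthest from its median, r was 0.60, 0.51 and 0.57, with adjusted p of 0.101, 0.132 and 0.101 by permutation, so none passed without those libraries. In muscle the largest r in size was 0.17, and the libraries of a tissue share the authors' scaling.

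Patterns over the 12 group means, with the mean of each tissue taken away, were compared among 10136 genes of at least 5 CPM on average. This is a description over 12 points and carries no test. The genes most like Eda2r were Zfp12 (r 0.96), Eif2s3y (0.96), Lyrm9 (0.96), Cstf3 (0.95) and Rubcn (0.95). Eif2s3y lies on the Y chromosome, and the libraries with Xist, which lack Y transcripts, were all in the young groups. Those most like Mdm2 were 2310022A10Rik (0.95), Blnk (0.93), Gga3 (0.93), Ddx31 (0.93) and Polk (0.92). Among members Ccng1 (0.87), Phlda3 (0.85), Plk2 (0.81) and Zmat3 (0.80) were nearest to Mdm2, and Zmat3 (0.80) and Ccng1 (0.78) to Eda2r, while Trp53inp1 ran the other way (-0.62 with Mdm2 and -0.73 with Eda2r).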

How the data were processed

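Strand-specific polyA libraries were made and sequenced on Illumina instruments, per the labels' protocols. The deposited table holds a signal per gene and library that its header calls CPM and that was made with CLC software, per the file headers. The build was GRCm38.p6 (mm10), per the submitters' processing notes, and the counting settings are not given in the sources used here. Columns of this deposited signal sum to 0.529 to 1.64 M, so the authors applied another factor than the total. All values (100%) were whole multiples of 1 read (tolerance 0.01). Reads were recovered from them, and totals ran from 15.4 to 28.5 M per library. Levels between tissues depend on that factor, and levels of different genes were not compared, since the signal is not per length.

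Per tissue, a gene was tested where the number of libraries above 1 CPM reached the size of the smallest group (14286 for adipose tissue, 12924 for liver, 13237 for muscle, and 11330 in the model over all tissues). The main test was limma 3.58.1 (R 4.3.3) with an intensity trend on log2(CPM + 1), with 1 mean per group and Benjamini-Hochberg adjustment over all genes. It was tested on simulated data. Alternatives were edgeR 4.0.16 and DESeq2 1.42.0 on recovered reads, a pseudocount of 0.1, no filter, total-read scaling, a sex covariate, and fits without the Xist libraries, without the adipose libraries with epididymis markers (sum over 10 CPM) and without each library. Correlations used 100000 permutations (scipy 1.17.1). Replicates are separate libraries of a group. Codes of young libraries repeat 12 numbers across tissues (8 in all 3 tissues, 4 in 2), which no label explains, and a fit of the tissue differences with the number as a block was added after seeing the data. P-values measure the spread between libraries. Pairs of libraries within a group differed by far more than sampling noise (chi-square over its degrees of freedom at least 13.5), so none was counted as a repeat. Members and lists were chosen with earlier results of these data known. Members are all named, with Trp53, Cdkn1a and Myc, and the other named genes are genes of the lists that were called, up to the 3 largest changes in each direction, and the 5 genes most like Eda2r and Mdm2.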

Additional observations from a re-analysis of the deposited data

Results flagged for a closer look

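Among 120 groups of member values, 4 had a library far from the others by Dixon's test, and chance flags about 1 in 20 groups. Ccng1 was lowest in the young KO adipose library K5F5248, at 40.3 CPM, which also held epididymis markers. Trp53inp1 was highest in the old KO muscle library K18S62, at 88.1 CPM. Zmat3 was highest in the old WT liver library W18L03, at 19.8 CPM, the library that was also highest in Eda2r, Ccng1 and Phlda3. Plk2 was highest in the old WT muscle library W18S41, at 28.5 CPM.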

How the results depend on the processing

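No member changed direction where limma called it. Trp53inp1 in WT adipose tissue, which DESeq2 alone called lower, differed by 0.64 in limma without the Xist libraries. With the sex covariate that difference was 0.04. The count of members called with age was 4 in KO adipose tissue, and it was 2 with edgeR, with total-read scaling and without the epididymis libraries. For WT adipose tissue (3) it was 1 without the expression filter, 1 without the Xist libraries and 5 with DESeq2. Those 5 were rises of Ccng1, Eda2r, Mdm2 and Plk2 and a fall of Trp53inp1, while the rise of Phlda3 was lost. For KO liver (1) it was 2 with DESeq2 and 0 without the filter and at a pseudocount of 0.1. For WT liver (1) it was 2 with DESeq2 and 0 without the filter, at a pseudocount of 0.1 and without the Xist libraries. For KO muscle (1) it was 0 with the sex covariate and without the Xist libraries, and for WT muscle (4) it was 2 and 0. For KO against WT in adipose tissue at 5 months DESeq2 called 1 where limma called 0. Without 1 library each, the counts ran from 2 to 5 in KO and 0 to 4 in WT adipose tissue, 0 to 3 in KO and 0 to 1 in WT liver, and 0 to 1 in KO and 0 to 5 in WT muscle, and stayed at 0 for the genotype, interaction and tissue comparisons. The cause was not tested, except that fits without libraries hold fewer samples. Of 3 correlations with Mdm2, 0 passed by Spearman's rho and 0 without the 2 libraries farthest from the median of Mdm2. The model over all tissues was not run without the filter or without the epididymis libraries. No paired analysis was possible within a tissue because replicate numbers follow accession order and the groups compared share no library numbers. Between tissues, the block by library number left the count of members called at 0 in all 3 comparisons. Depth limits Eda2r in liver and Gdf15 in muscle, where 1 read was worth 0.0204 to 0.0882 CPM over all libraries.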

Other observations

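In young adipose tissue the libraries high in Trp53inp1 were also high in Ddit4, a stress gene that lowers mTORC1 activity and that was chosen for this comparison after its values were seen. W5F5041 and W5F5042 had 647 and 467 CPM of Trp53inp1 and 291 and 151 CPM of Ddit4. The other 4 young WT libraries had 21.8 to 69.7 CPM of Trp53inp1 and 17.3 to 68.1 CPM of Ddit4. Among young KO libraries K5F4284, K5F4285 and K5F5116 had 362, 159 and 235 CPM of Trp53inp1 and 260, 265 and 141 CPM of Ddit4. In the 10 old adipose libraries Ddit4 was 19.7 to 45.1 CPM. No test was made of this relation.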
